A study of Mus musculus with 9 samples.

Results

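Xanthine dehydrogenase and 7 genes of cystine uptake, glutathione synthesis and the thioredoxin system were followed through splenic type-2 conventional dendritic cells (cDC2s) of 3 genotypes. The 8 genes were Xdh, Slc7a11, Gclc, Gclm, Txnrd1, Prdx1, Srxn1 and Nqo1. They were chosen by pathway with their count values in these same 9 libraries in view, so their differences between groups are descriptions and not independent evidence. All 8 were among the 14209 genes of the count table, and 6 of them were among the 12043 genes that passed a filter on low counts. Srxn1 and Nqo1 did not pass it and are given as counts.

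The libraries were made from spleen cDC2s of C57BL/6 mice. The 3 WT libraries had the genotype label WT. The 3 CD97_KO libraries were labelled as knockout for CD97, an adhesion G protein-coupled receptor encoded by Adgre5, which the count table lists under its older symbol Cd97. The 3 G13_KO libraries carried CD11c-cre with floxed Gna13, which encodes the G protein subunit Gα13. The CD11c promoter drives Cre in dendritic cells and also in some macrophages. The genotype label of the G13_KO libraries names Adgre5-/- as well, whereas the design text of the series gives the Cre and the floxed allele alone. Whether the WT and CD97_KO mice carried Cre, and the age and sex of the animals, were not given in the sources used here. Separate mice for the libraries of a group are not stated in the labels, so the p-values measure only the spread between these libraries.

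Xanthine dehydrogenase carries out the last steps of purine breakdown, from hypoxanthine through xanthine to uric acid, and its oxidase form passes electrons to oxygen and makes superoxide and hydrogen peroxide. Cells clear peroxides through glutathione, whose synthesis depends on cystine brought in by the Slc7a11 transporter, and through thioredoxin, peroxiredoxins and sulfiredoxin. Many of these genes are targets of the transcription factor NRF2, which KEAP1 holds in check, and Slc7a11 is also a target of ATF4 when amino acids run short.

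Library totals ran from 5679946 to 13904646 counts. Levels are CPM (counts scaled to a common library size) after scaling by edgeR's trimmed mean of M values, written TMM CPM. A gene was called where edgeR's quasi-likelihood test, with Benjamini-Hochberg adjustment over all 12043 genes, gave an adjusted p under 0.05. The summed level of 12 cDC2 markers was 9646 to 11620 CPM over the 9 libraries, and all 12 were detected. H2-Ab1 made up much of that sum, with group means of 5048 to 5696 CPM. In G13_KO against WT 2 of the 12 were called higher and 3 lower, or 41.7% beside 11% of all genes. In CD97_KO against WT none was called, beside 8.53%. Mean Itgax was 1466 CPM in WT, 1410 in CD97_KO and 1852 in G13_KO. Mean Cd4 was 640.9, 402.3 and 405.2 CPM in the same order. Gna13 was 100.6 ± 11.4 CPM (SD, n = 3) in G13_KO and 213 ± 23.9 in WT. Cd97 was 437, 725 and 839 CPM in CD97_KO against 899 to 1505 in WT, which was not called (edgeR adjusted p = 0.105), and 1015 to 1223 CPM in G13_KO, a range inside that of WT. All 3 CD97_KO libraries had the female pattern of Xist and Y-linked genes, against 1 of 3 in WT (replicate 2) and 1 of 3 in G13_KO (replicate 2), so that sex and the CD97_KO label were partly confounded. The sum of 24 cell cycle genes was 1948 to 2702 CPM in WT, 4081 to 4372 in CD97_KO and 4114 to 4968 in G13_KO. The sum of 20 dendritic cell maturation genes was 3930 to 4439 CPM in WT, 2755 to 2905 in CD97_KO and 2550 to 2738 in G13_KO. The sum of 19 macrophage markers, all detected, was 843 to 1980 CPM in WT, 959 to 2434 in CD97_KO and 1109 to 1482 in G13_KO. Other lists were higher in all G13_KO than in all WT libraries: 8 monocyte markers (243 to 293 against 136 to 229 CPM), 8 plasmacytoid dendritic cell markers (361 to 474 against 242 to 340) and 10 T and NK cell markers, of which 8 were in the table (13.4 to 19.5 against 2.55 to 11.5). In CD97_KO these sums were 167 to 230, 321 to 361 and 4.98 to 11.5 CPM. Of 9 neutrophil markers, 3 were in the table. Their sum was 3.06 to 3.3 CPM in G13_KO, 1.36 to 2.58 in WT and 0.732 to 1.9 in CD97_KO. What the cell cycle, maturation, cDC2, monocyte, neutrophil, plasmacytoid and T and NK cell differences contributed to results on the 8 genes was not tested. With the macrophage marker level as a covariate, the log2 differences of Xdh in CD97_KO and of Slc7a11 in G13_KO against WT were -1.05 and -1.32, both called (edgeR adjusted p = 0.00727 and 0.000802). In sorted bulk cells, fewer cells of a kind and less RNA per cell cannot be told apart.

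Per kilobase of exon, the WT level was highest for Prdx1, at 22.4 ± 5.11 CPM per kb (SD, n = 3), followed by Gclc at 15.4 ± 1.37. Txnrd1 had 3.88 ± 0.356, Slc7a11 2.17 ± 0.348, Xdh 1.84 ± 0.306 and Gclm 1.03 ± 0.218 CPM per kb. Srxn1 was at 0.0940 ± 0.0445 CPM per kb and Nqo1 had no count in WT. The ranges of Slc7a11 and Xdh overlapped in WT, and those of the other neighbours in this order did not. In G13_KO the order of Slc7a11 and Xdh was the other way round, with 0.868 ± 0.128 and 2.26 ± 0.379 CPM per kb.

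Xdh was lower in CD97_KO than in both other groups. Its gene spans 73883895 to 73950196 on the minus strand of chromosome 17 (mm10). In WT its level was 17.8, 19.2 and 13.8 CPM (replicates 1 to 3), in CD97_KO 10.2, 7.32 and 9.15, and in G13_KO 23.9, 17.0 and 21.1. Every CD97_KO library was below every WT and every G13_KO library, whereas WT and G13_KO overlapped. Xdh fell by 0.93 ± 0.20 on the log2 scale (SE) in CD97_KO against WT, to 0.526 of the WT level (edgeR adjusted p = 0.0108). In G13_KO against WT the log2 difference was 0.30 ± 0.19 (edgeR adjusted p = 0.347). Between the knockouts, Xdh was 1.22 ± 0.20 higher on the log2 scale in G13_KO than in CD97_KO, a fold of 2.33 (edgeR adjusted p = 0.0396). It was 1 of only 6 genes called in that comparison.

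The lower Xdh level in CD97_KO was called with any of the 9 libraries left out, where the log2 difference ranged from -1.05 to -0.82 (highest edgeR adjusted p = 0.0461). With the sex pattern as a covariate the log2 difference was -0.89 and the call was lost (edgeR adjusted p = 0.0835). Among the libraries of female pattern, WT replicate 2 had 19.2 CPM and G13_KO replicate 2 had 17.0, both above the 7.32 to 10.2 of the 3 CD97_KO libraries. WT and G13_KO had 1 such library each, so these are values with no replicate check in those groups. The call between the knockouts was less firm: it was lost without CD97_KO replicate 1, 2 or 3 (edgeR adjusted p = 0.067, 0.288 and 0.22), without G13_KO replicate 1 (0.348) and with the sex covariate (1.18, 0.443).

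Slc7a11, the transporter that exchanges glutamate for cystine, was lower in G13_KO. Its gene spans 49892526 to 50443614 on the minus strand of chromosome 3. It had 24.9, 34.2 and 31.7 CPM in WT, 20.7, 24.5 and 32.9 in CD97_KO, and 10.4, 11.8 and 14.0 in G13_KO. All 3 G13_KO libraries were below the lowest of the other 6, and WT and CD97_KO overlapped. Slc7a11 fell by 1.31 ± 0.20 on the log2 scale in G13_KO against WT, to 0.403 of the WT level (edgeR adjusted p = 0.00073). In CD97_KO against WT the difference was -0.21 ± 0.19 (edgeR adjusted p = 0.524). The direct comparison of G13_KO with CD97_KO gave -1.10 ± 0.20 and missed the threshold (edgeR adjusted p = 0.0723). It passed in 5 of 10 other fits, such as DESeq2 (adjusted p = 0.000508), no filter on low counts (edgeR adjusted p = 0.0371) and only the 2 groups in the fit (0.0163), and in 3 of 9 fits with a library left out. The highest edgeR adjusted p among these were 0.65 with the sex covariate and 0.598 without G13_KO replicate 1. The call against WT was kept with any single library left out, over a range of -1.44 to -1.21. Strand-specific counting was not stated, and reads of the antisense gene Gm37854 inside this locus could not be told apart from those of Slc7a11.

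**Figure D1:**
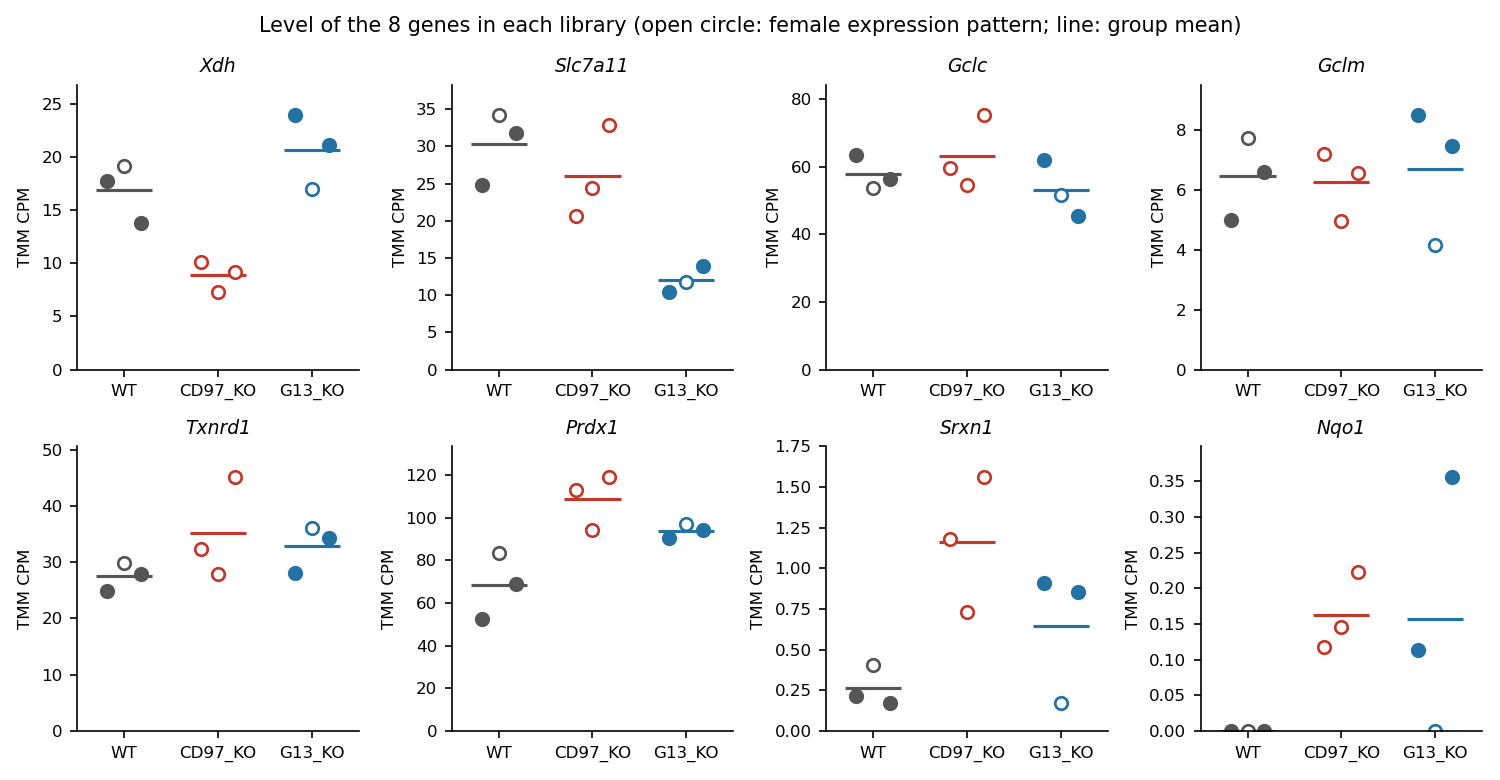
TMM CPM (vertical axis, starting at 0) of the 8 genes in each of the 9 libraries, 1 point a library, with the group mean as a line and open circles for libraries of female expression pattern. Xdh lies at 7.32 to 10.2 CPM in the 3 CD97_KO libraries and Slc7a11 at 10.4 to 14.0 in the 3 G13_KO libraries, each below the other 6.

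The enzymes that join cysteine to glutamate, the committed step of glutathione synthesis, showed no such difference. Gclc, the catalytic subunit of glutamate-cysteine ligase (chromosome 9, 77754535 to 77794485, plus strand), had 63.7, 53.6 and 56.5 CPM in WT, 59.7, 54.6 and 75.4 in CD97_KO, and 62.1, 51.6 and 45.4 in G13_KO. All pairs of groups overlapped, with log2 differences of 0.13 ± 0.14 in CD97_KO and -0.13 ± 0.14 in G13_KO against WT. Gclm, the modifier subunit (chromosome 3, 122245557 to 122270732, plus strand), had 5.01, 7.74 and 6.62 CPM in WT, 7.21, 4.98 and 6.59 in CD97_KO, and 8.51, 4.17 and 7.49 in G13_KO. Its differences against WT were -0.03 ± 0.29 and 0.09 ± 0.29, and the smallest edgeR adjusted p for either subunit in any comparison was 0.603. The standard error of Gclm was larger than that of the other 5 tested genes, and its counts were the lowest among them, 142 to 204 in a group.

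In the thioredoxin arm, Prdx1 was higher in CD97_KO. Prdx1 is a peroxiredoxin that reduces hydrogen peroxide with electrons from thioredoxin (chromosome 4, 116685544 to 116700822, plus strand). Its level was 52.4, 83.5 and 68.9 CPM in WT, 113, 94.1 and 119 in CD97_KO, and 90.3, 96.9 and 94.5 in G13_KO. Every knockout library was above every WT library, and the knockout groups overlapped each other. Prdx1 was 0.68 ± 0.14 higher on the log2 scale in CD97_KO than in WT, a fold of 1.6 (edgeR adjusted p = 0.012). The call was lost without CD97_KO replicate 3 (0.61, edgeR adjusted p = 0.0642) and with the sex covariate (0.51, edgeR adjusted p = 0.127). WT replicate 2, the only WT library of female pattern, was the highest of the WT libraries at 83.5 CPM, below the 94.1 to 119 of the 3 CD97_KO libraries.

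In G13_KO, Prdx1 had a log2 difference of 0.46 ± 0.14 from WT (edgeR adjusted p = 0.0563). With the replicate number as a block in the 2 groups it was 0.48 and called (edgeR adjusted p = 0.0286), and without WT replicate 2 it was 0.64 (edgeR adjusted p = 0.00617). The difference between the knockouts was -0.22 ± 0.14 (edgeR adjusted p = 0.91).

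Txnrd1, the cytosolic thioredoxin reductase (chromosome 10, 82833951 to 82897712, plus strand), had 24.9, 29.9 and 27.8 CPM in WT, 32.3, 28.0 and 45.2 in CD97_KO, and 28.0, 36.1 and 34.2 in G13_KO. Its groups overlapped, and neither 0.36 ± 0.17 in CD97_KO nor 0.25 ± 0.17 in G13_KO was called (edgeR adjusted p = 0.212 and 0.379). Eid3 lies within its span on the same strand, so some reads could belong to either. Across the 9 libraries, Txnrd1 and Prdx1 had a Pearson correlation of log2 levels of 0.774, the highest of the 15 pairs. After removal of group means it was 0.669, below Slc7a11 with Txnrd1 (0.781) and Xdh with Gclm (0.694). The 9 points share libraries and groups, and the values are descriptions.

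Srxn1 and Nqo1 were near the limit of detection. Srxn1, sulfiredoxin, which repairs overoxidised peroxiredoxins (chromosome 2, 152105516 to 152111376, plus strand), had 2, 3 and 1 counts in WT, 10, 5 and 14 in CD97_KO, and 8, 1 and 12 in G13_KO. The CD97_KO counts were above those of WT in all 3 libraries, while G13_KO replicate 2 had a single count. Summed over libraries, the rate in CD97_KO was 4.65 times that in WT (95% interval 1.9 to 13.7) and that in G13_KO 2.83 times (1.1 to 8.56), intervals that cover counting error only. A fit with no filter on low counts gave Srxn1 an edgeR adjusted p of 0.13 in CD97_KO and 0.361 in G13_KO. Nqo1, a quinone reductase widely used as an NRF2 readout (chromosome 8, 107388225 to 107403206, minus strand), had 0 counts in each WT library, 1, 1 and 2 in CD97_KO, and 1, 0 and 5 in G13_KO. A count of 0 over the 3 WT libraries allows a level of up to 0.131 CPM (3 counts in 22964053). The pooled Nqo1 levels of 0.167 CPM in CD97_KO and 0.211 in G13_KO rested on 4 and 6 counts, and no difference was detectable at this depth (edgeR adjusted p = 0.311 and 0.251 with no filter).

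**Figure D2:**
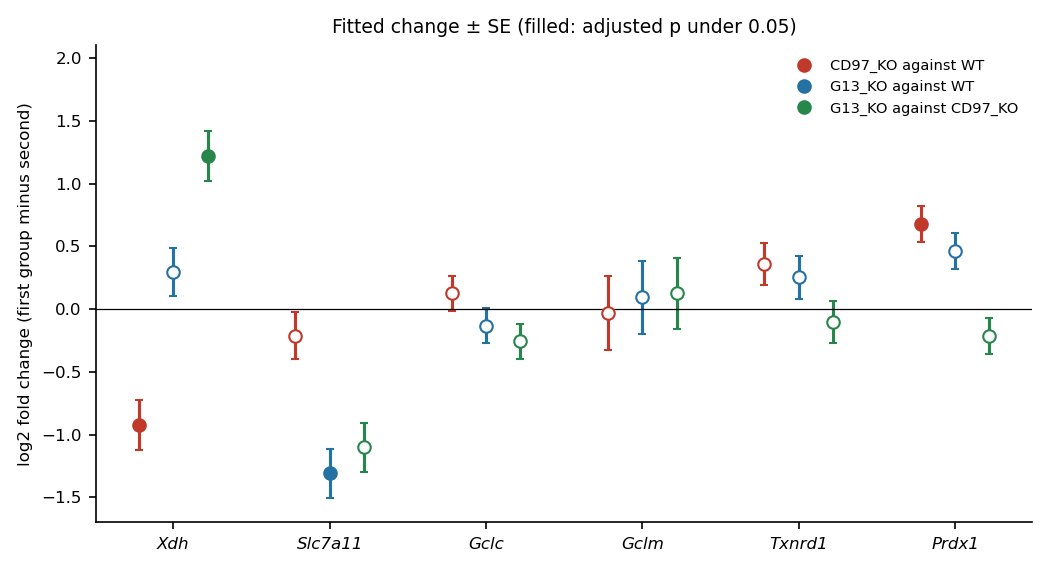
Fitted log2 fold change ± SE (vertical axis) of the 6 genes that passed the low-count filter, in 3 comparisons, with filled points where the edgeR adjusted p was under 0.05. The filled points are Xdh at -0.93 (CD97_KO against WT) and 1.22 (G13_KO against CD97_KO), Slc7a11 at -1.31 and Prdx1 at 0.68.

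Of the 6 tested genes, 1 was higher and 1 lower in CD97_KO against WT, where 8.53% of all tested genes were called (4.84% higher and 3.69% lower). In G13_KO against WT, 1 of 6 was lower and none higher, where 11% of all genes were called (5.74% higher and 5.24% lower). In that comparison 2 of the 6 had an unadjusted p under 0.05, and DESeq2 called 2. In G13_KO against CD97_KO, 1 of 6 was higher, against 0.0498% of all genes called (0.0332% higher and 0.0166% lower). Groups did not overlap for 2 of the 6 in each comparison, against 28.2%, 29.6% and 13.1% of all tested genes in that order. The genes were chosen for these contrasts, so nothing is read from these counts. The median log2 difference of the 6 was 0.05 in CD97_KO and 0.17 in G13_KO, beside -0.0034 and -0.00827 over all tested genes. Both comparisons used the same 3 WT libraries.

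The sequences upstream of 3 members are printed to show which NRF2 and ATF4 motifs lie near them. Of these, Prdx1 was called in CD97_KO and Slc7a11 in G13_KO against WT, and Gclm in neither. RefSeq promoter windows (GRCm38.p6) were found for 6 of the 8 genes, not for Xdh and Gclc. The 250 bases before each RefSeq start were searched on both strands for TGACNNNGC (antioxidant response element core, bound by NRF2) and TGANTCA (AP-1 site, which can overlap the first). After the windows had been read, TGAGNNNGC (a second form of the core) and TGATGCAA (an amino acid response element, bound by ATF4) were added. Of 32817 windows of this length, 10.2% held the first, 6.75% the second, 14.4% the third and 0.792% the fourth. Prdx1 and Gclm are shown because they hold the first core, and Slc7a11 was chosen after its values were seen. Capitals mark motif matches, and each run ends before the first transcribed base of the gene model.
Prdx1: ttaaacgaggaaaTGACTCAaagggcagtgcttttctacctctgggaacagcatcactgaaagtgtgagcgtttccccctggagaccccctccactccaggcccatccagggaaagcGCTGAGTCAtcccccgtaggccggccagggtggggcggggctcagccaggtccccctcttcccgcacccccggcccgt
Gclm: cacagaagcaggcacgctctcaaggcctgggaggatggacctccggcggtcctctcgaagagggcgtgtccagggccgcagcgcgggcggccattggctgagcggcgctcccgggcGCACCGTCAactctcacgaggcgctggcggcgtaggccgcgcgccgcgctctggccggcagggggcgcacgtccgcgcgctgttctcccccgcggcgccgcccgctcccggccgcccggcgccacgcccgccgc
Slc7a11: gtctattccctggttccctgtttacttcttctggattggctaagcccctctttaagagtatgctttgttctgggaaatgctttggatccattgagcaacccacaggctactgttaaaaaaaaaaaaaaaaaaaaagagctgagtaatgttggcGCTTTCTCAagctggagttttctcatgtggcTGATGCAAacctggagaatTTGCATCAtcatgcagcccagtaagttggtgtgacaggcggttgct
Positions are counted back from the start of the gene model, that is, from the end of each printed run. The Prdx1 run (chr4:116685349-116685543, plus strand) held an AP-1 match 182 bases before the gene model and another at 76 bases that overlaps the core match at 78. The Gclm run (chr3:122245307-122245556, plus strand) held 1 core match, at 134 bases. The Slc7a11 run (chr3:50443615-50443863, minus strand) held 2 amino acid response elements in opposite orientation, at 65 and 46 bases, and 1 match to the second form of the core at 96. Srxn1 had 2 AP-1 matches, at 94 and 37 bases, and 2 matches to the second form of the core, at 150 and 37. Txnrd1 had 1 core match in 1 of its 3 windows, and Nqo1 had no match to any of the 4. A match is a description of letters and does not show binding.

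The 5 genes whose log2 levels followed Xdh most closely over the 9 libraries, among 11024 genes compared, were Cask (Pearson r = 0.981), Ppp1r15a (0.937), Egr2 (0.933), Zfp36 (0.93) and Ccl4 (0.93). These are descriptions, since the points share libraries and groups, and so are the differences of these genes between groups, which the choice by likeness to Xdh partly fixes. Cask, a membrane scaffold kinase, had 105.5 ± 16.1 CPM in WT, 67.0 ± 9.15 in CD97_KO and 111.5 ± 13.1 in G13_KO (SD, n = 3). Egr2, a zinc-finger transcription factor, had 22.3 ± 9.35, 9.91 ± 1.98 and 41.0 ± 9.08 CPM in the same order. Ppp1r15a, a phosphatase subunit that restores translation after stress, had 94.2 ± 18.6, 57.6 ± 4.19 and 99.2 ± 21.7 CPM. In CD97_KO against WT the log2 difference was -0.66 ± 0.13 for Cask, -0.71 ± 0.17 for Ppp1r15a, -1.18 ± 0.32 for Egr2 and -2.62 ± 0.67 for the chemokine Ccl4. It was -0.64 ± 0.23 for Zfp36, which encodes an mRNA decay factor and was not called (edgeR adjusted p = 0.143). The edgeR adjusted p was 0.00796 for Cask, 0.021 for Ppp1r15a, 0.0458 for Egr2 and 0.048 for Ccl4. With a library left out, Cask was called in 8 of 9 fits and Ppp1r15a in 5, but Egr2 and Ccl4 in 2 each. The Egr2 levels of CD97_KO and WT overlapped. Between the knockouts none of the 5 was called, with an edgeR adjusted p of 0.0723 for both Egr2 (log2 2.05) and Cask (0.74), beside 0.0396 for Xdh. Egr2 was called there in 7 of 10 other fits and Cask in 6, beside 8 for Xdh. With a library left out, Egr2 and Cask were each called there in 2 of 9 fits, beside 5 for Xdh.

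**Figure D3:**
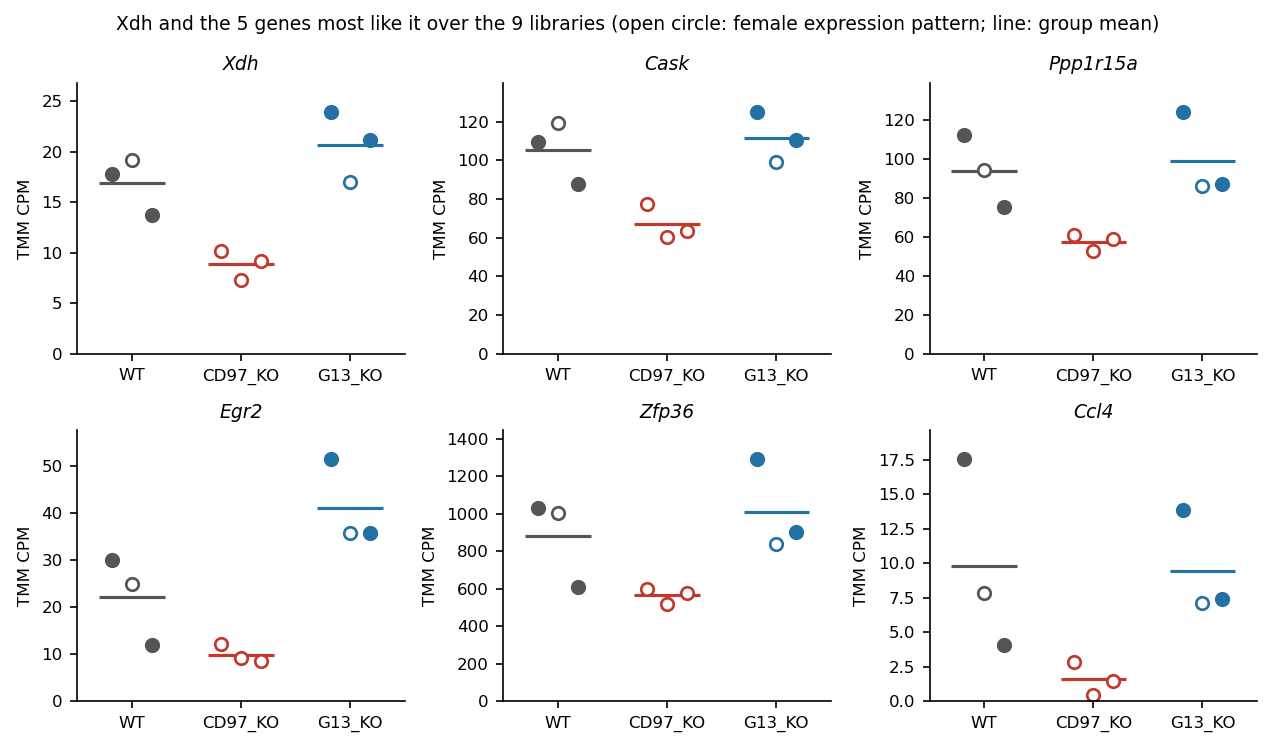
TMM CPM (vertical axis, starting at 0) of Xdh and the 5 genes with the highest correlation to it, 1 point a library, with group means as lines and open circles for libraries of female expression pattern. Cask has a mean of 67.0 CPM in CD97_KO against 105.5 in WT and 111.5 in G13_KO.

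Around the 8 genes, a list of 166 redox and purine genes was drawn up from pathway knowledge with earlier results of these data known. Of these, 148 were in the table and 132 were tested. In CD97_KO against WT 11 rose and 1 fell, or 9.09% of the 132 beside 8.53% of all genes, with a median log2 difference of 0.11. In G13_KO against WT 11 rose and 6 fell, or 12.9% beside 11%, with a median of 0.11. Between the knockouts edgeR called 0 of 132, 8 had an unadjusted p under 0.05, and DESeq2 called 0. Over all genes, edgeR called 0.0498% there, so nothing is read from the 0 of 132. Leaving out 1 library moved the first count between 3 (without CD97_KO replicate 3) and 20 (without WT replicate 2), with 4 without WT replicate 1. It moved the second between 4 (without G13_KO replicate 2) and 19, with 7 without WT replicate 1 and 8 without G13_KO replicate 1 or 3. With the sex covariate, 1 gene remained called in CD97_KO.

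Partners of Xdh in purine breakdown and salvage, and the enzymes that build its molybdenum cofactor, are set beside the share of all genes called. That share was 8.53% in CD97_KO and 11% in G13_KO. At those shares, lists of 13 and 6 genes would hold few calls or none, so nothing is read from these counts. Of 13 tested purine genes, none was called in CD97_KO by edgeR or DESeq2, and 4 had an unadjusted p under 0.05. There 3 of the 13 did not overlap WT, beside 28.2% of all genes. In G13_KO 1 of the 13 rose, or 7.69%. That gene was Hprt, which salvages hypoxanthine and guanine, at 50.2 CPM in G13_KO against 37.6 in WT (log2 0.42 ± 0.11, edgeR adjusted p = 0.0242). The Hprt call was kept in 4 of 9 fits with a library left out. Hprt was also above WT in CD97_KO (39.96 to 49.34 CPM against 35.98 to 39.71), without a call. Pnp, which makes hypoxanthine, was at 83.2 CPM in CD97_KO, 78.0 in G13_KO and 62.1 in WT, with log2 differences of 0.43 and 0.33 that were not called (edgeR adjusted p = 0.0691 and 0.14). Adk, adenosine kinase, named after its values were seen, was at 3.59 CPM in WT, 6.61 in CD97_KO and 6.74 in G13_KO (edgeR adjusted p = 0.119 and 0.0976). Ada, adenosine deaminase, had differences of 0.38 and 0.20 (0.374 and 0.664). None of the 6 cofactor genes was called in either knockout by edgeR or DESeq2, with 0 and 1 at an unadjusted p under 0.05. The most abundant of them, Gphn, was at 26.3 CPM in CD97_KO, 27.8 in G13_KO and 33.1 in WT.

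Glutathione reductase and thioredoxin reductase consume NADPH. Of 10 tested genes that supply it, 3 were called upward in CD97_KO and 5 in G13_KO, and none was called downward. Over all genes, 4.84% and 5.74% were called upward. The list was drawn up with earlier results of these data known, so these counts are descriptions. What the cell cycle difference contributed to them was not tested. Tkt, a pentose phosphate transketolase, had 67.1, 85.4 and 85.7 CPM in WT, 121, 117 and 129 in CD97_KO, and 113, 124 and 107 in G13_KO, so that every knockout library was above WT. Tkt rose by 0.62 ± 0.11 and 0.53 ± 0.11 on the log2 scale (edgeR adjusted p = 0.00274 and 0.00547). Idh2, the mitochondrial NADP isocitrate dehydrogenase, rose by 0.62 ± 0.13 and 0.49 ± 0.13 (edgeR adjusted p = 0.00796 and 0.0217). With the sex covariate the CD97_KO values of Tkt and Idh2 were 0.51 and 0.56 and no longer called (edgeR adjusted p = 0.0568 and 0.1). Pgd, 6-phosphogluconate dehydrogenase, rose by 0.48 ± 0.12 in G13_KO (edgeR adjusted p = 0.0188). Nnt, the mitochondrial transhydrogenase, which is mutated in the C57BL/6J substrain, had 43.0, 29.5 and 47.4 CPM in G13_KO against 22.4 to 28.2 in WT and 23.4 to 28.0 in CD97_KO. The substrain is not given in the labels. The Nnt difference in G13_KO was 0.63 ± 0.17 (edgeR adjusted p = 0.0244), was lost with the replicate block in the 2 groups (0.61, 0.0618), and the G13_KO library of female pattern (29.5 CPM) lay close to that of WT (28.2). Taldo1 (0.32 in CD97_KO, edgeR adjusted p = 0.0421) and Me2 (0.34 in G13_KO, 0.0333) complete the called genes and were named after their values were seen. Taldo1 was not called in G13_KO, at 137.1 to 151.6 CPM against 115.5 to 133.6 in WT. Me2 was not called in CD97_KO, at 87.46 to 99.81 CPM against 73.03 to 83.64 in WT. The Me2 call was lost with the replicate block in the 2 groups (edgeR adjusted p = 0.0583). With a library left out, the Taldo1 call was kept in 3 of 9 fits and the Me2 call in 4.

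**Figure D4:**
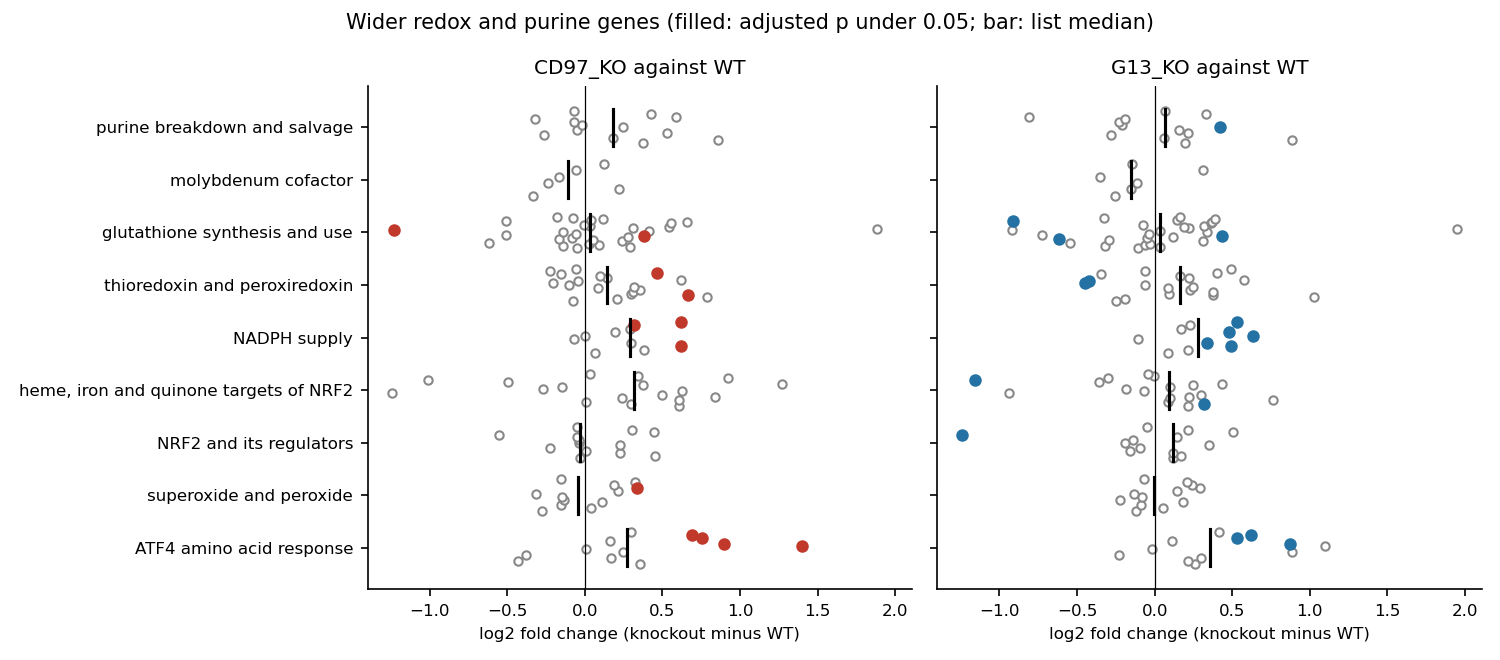
Log2 fold change against WT (horizontal axis) of the 132 tested redox and purine genes in 9 lists, for CD97_KO on the left and G13_KO on the right, 1 point a gene, filled where the edgeR adjusted p was under 0.05, with the list median as a bar. NADPH supply has 3 and 5 filled points of 10, all to the right of 0, and the molybdenum cofactor list of 6 has none. Over all tested genes, 8.53% in CD97_KO and 11% in G13_KO were called. The lists were drawn up with earlier results of these data known, so these counts are descriptions.

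Genes of the ATF4 amino acid response list share a regulator with Slc7a11. Of 12 tested, 4 were called upward in CD97_KO and 3 in G13_KO, and none downward. Over all genes, 4.84% and 5.74% were called upward. This list too was drawn up with earlier results known, so these counts are descriptions. What the cell cycle difference contributed to them was not tested. Psat1, a serine synthesis enzyme, was at 14.5, 21.5 and 16.3 CPM in WT, 34.2, 24.9 and 37.6 in CD97_KO, and 25.7, 32.3 and 37.2 in G13_KO. Its log2 differences were 0.89 ± 0.20 and 0.87 ± 0.20 (edgeR adjusted p = 0.0129 and 0.011). Shmt2, which moves serine carbon into the folate pool, rose by 0.75 ± 0.16 and 0.53 ± 0.16 (edgeR adjusted p = 0.00946 and 0.0422). The G13_KO call was lost with the replicate block in the 2 groups (edgeR adjusted p = 0.0565). It was kept in 2 of 9 fits with a library left out. Slc7a1, a cationic amino acid transporter, rose by 0.69 ± 0.17 and 0.62 ± 0.17 (edgeR adjusted p = 0.0256 and 0.0331). Phgdh, the first enzyme of serine synthesis, rose by 1.40 ± 0.40 in CD97_KO (edgeR adjusted p = 0.0434), a call kept in 1 of 9 fits with a library left out. Phgdh was not called in G13_KO, at 2.779 to 4.085 CPM against 1.222 to 1.867 in WT. No gene of this list was called lower in G13_KO, where 5.24% of all genes were called lower. At that share a list of 12 would hold few such calls or none, so nothing is read from their absence. The cause of the lower Slc7a11 level in G13_KO was not tested. None of the 4 CD97_KO calls was kept with the sex covariate.

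In the glutathione list, 1 of 29 rose and 1 fell in CD97_KO, and 1 rose and 2 fell in G13_KO, or 6.9% and 10.3% beside 8.53% and 11% of all genes. Gpx1, the main cytosolic glutathione peroxidase, was 872 to 999 CPM in WT, 1148 to 1263 in CD97_KO and 1146 to 1329 in G13_KO. It rose by 0.38 ± 0.08 and 0.44 ± 0.08 on the log2 scale (edgeR adjusted p = 0.0122 and 0.00414). Gsta3, a glutathione S-transferase from a family of similar sequences, fell by 1.23 ± 0.29 in CD97_KO (edgeR adjusted p = 0.022). In G13_KO, Gstt3 fell by 0.91 ± 0.23 and the mitochondrial glutaredoxin Glrx2 by 0.61 ± 0.18 (edgeR adjusted p = 0.0208 and 0.0388). The Glrx2 call was kept in 3 of 9 fits with a library left out. Gsta3 was also below WT in G13_KO (8.061 to 13.72 CPM against 17.65 to 24.71), without a call. Gstt3 was also below WT in CD97_KO (6.148 to 7.815 CPM against 9.265 to 10.32), without a call. The thioredoxin list had 2 of 19 called in each knockout, upward in CD97_KO and downward in G13_KO, or 10.5% beside 8.53% and 11% of all genes. In both knockouts 12 of the 19 had a log2 difference above 0, with medians of 0.14 and 0.16. Prdx2, a peroxiredoxin close to Prdx1, rose by 0.66 ± 0.19 and the thioredoxin-like Txnl1 by 0.46 ± 0.13 in CD97_KO (edgeR adjusted p = 0.0391 and 0.0353). Txnl1 was also above WT in G13_KO (45.84 to 57 CPM against 33.35 to 43.31), without a call. Its CD97_KO call was kept in 4 of 9 fits with a library left out. The sestrins Sesn2 and Sesn3, stress-induced regulators of growth signalling, fell by 0.45 ± 0.12 and 0.42 ± 0.11 in G13_KO (edgeR adjusted p = 0.0207 and 0.022), and the Sesn3 call was lost with the block in the 2 groups (0.0502).

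The transcript levels of NRF2, KEAP1 and BACH1 overlapped between WT and each knockout. Nfe2l2, which encodes NRF2, was at 88.5 CPM in WT, 85.7 in CD97_KO and 98.2 in G13_KO. Keap1, its inhibitor, was at 23.3, 23.4 and 20.8 CPM in the same order, and Bach1, a repressor at NRF2 sites, at 69.0, 67.6 and 75.2. The log2 differences from WT were -0.05 and 0.15 for Nfe2l2, 0.01 and -0.16 for Keap1 and -0.03 and 0.12 for Bach1, each with an SE of 0.15 to 0.17 and an edgeR adjusted p of at least 0.593. Of the 13 genes in this list, none was called in CD97_KO by edgeR or DESeq2 (4 at an unadjusted p under 0.05). Over all genes, 8.53% were called there. In G13_KO the related factor Nfe2l3 fell by 1.24 ± 0.36 (edgeR adjusted p = 0.0387). It was the only edgeR call of the 13 in G13_KO, or 7.69% beside 11% of all genes. Nothing is read from these counts in so short a list.

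Among 18 heme, iron and quinone targets of NRF2, edgeR called 0 in CD97_KO (5 at an unadjusted p under 0.05, 1 by DESeq2). In G13_KO it called 1 upward and 1 downward. These were 0% and 11.1% of the list, beside 8.53% and 11% of all genes. Akr1a1, an aldehyde reductase, was not called in CD97_KO, at 146.7 to 164.3 CPM against 115.5 to 139.9 in WT. In G13_KO it rose by 0.32 ± 0.09 (edgeR adjusted p = 0.0387, and 0.0544 with the block in the 2 groups). Osgin1 fell by 1.16 ± 0.35 (edgeR adjusted p = 0.0487, and 0.0969 with that block). With a library left out, the Akr1a1 call was kept in 2 of 9 fits and the Osgin1 call in 1. The Osgin1 level was 13.4, 4.21 and 13.6 CPM in WT against 4.09 to 5.21 in G13_KO, so the groups overlapped through WT replicate 2, the WT library of female pattern. Fth1, the ferritin heavy chain and the most abundant uncalled gene of the list, was at 747 CPM in WT, 676 in CD97_KO and 799 in G13_KO. Among 12 superoxide and peroxide genes, Rac2, a subunit of the phagocyte NADPH oxidase, rose by 0.34 ± 0.09 in CD97_KO (edgeR adjusted p = 0.0362). It was the only edgeR call there, or 8.33% of the list beside 8.53% of all genes. The Rac2 call was kept in 3 of 9 fits with a library left out. Rac2 was not called in G13_KO, at 319.5 to 355.5 CPM against 249.6 to 312.6 in WT. In G13_KO edgeR called 0 of the 12, with 3 at an unadjusted p under 0.05 and 1 by DESeq2. Over all genes, 11% were called there. Nothing is read from the counts in these short lists.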

How the data were processed

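Gene counts of 9 spleen cDC2 RNA-seq libraries were analysed. The deposited table holds raw counts per gene symbol, with no gene under 10 counts in total. The authors' tools were STAR, HTSeq and DESeq2 with mm10, per the submitters' processing notes. Versions and strandedness were not given in the sources used here.

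Columns were assigned to libraries through their labels. Genes were filtered by filterByExpr (12043 of 14209 kept), scaled by TMM and fitted over all 9 libraries in edgeR 4.0.16 (R 4.3.3) by robust quasi-likelihood, with Benjamini-Hochberg adjustment over all tested genes at 0.05. Totals of 5679946 to 13904646 set the precision: 1 count was 0.0719 to 0.176 CPM. The procedure was tested on simulated data. No libraries held identical counts.

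The members and lists were chosen with earlier results of these data known. Named genes were the members, up to 4 called genes a list, Nfe2l2, Keap1, Bach1, Pnp, Ada and Hprt. The most abundant uncalled gene is given for the purine (Pnp), cofactor (Gphn) and heme and iron (Fth1) lists. Elsewhere it was Abcc1 (glutathione), Txnip (thioredoxin), Nadk (NADPH), Cul3 (NRF2), Ucp2 (superoxide) and Ddit4 (ATF4), whose levels are not described. Likeness to Xdh was the Pearson r of log2 CPM (prior count 2). Gene spans are GENCODE models on mm10.

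Same-numbered WT and G13_KO libraries deviated together from their group means (r = 0.111 to 0.179 in 3 of 3 pairs), so these numbers were taken to pair them from the data, not the labels. Same-numbered libraries of these 2 groups also shared their sex pattern (replicate 2 female, the others male), and WT numbers follow the sample titles, which differ from the numbers in the column names. WT and CD97_KO (-0.301 to 0.0594) and the knockouts (-0.0731 to 0.0112) were not paired. Alternatives were other scalings, no filter, DESeq2 1.42.0, replicate blocks, fits on the 2 groups, sex-pattern and macrophage-marker covariates and leaving out each library. Fits within a sex pattern and the block in the 2 groups were added after seeing the data.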

Additional observations from a re-analysis of the deposited data

Results flagged for a closer look

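Xdh differed between the knockouts, with a log2 difference of 1.22 between G13_KO and CD97_KO in the direct comparison. All 3 G13_KO libraries (17.0 to 23.9 CPM) were above all 3 CD97_KO libraries (7.32 to 10.2 CPM). The sex patterns of these groups differed (0 male-pattern libraries in CD97_KO and 2 in G13_KO), and with the sex pattern as a covariate the difference was 1.18 and not called (edgeR adjusted p = 0.443).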

How the results depend on the processing

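Depth limited Srxn1 and Nqo1, and 3 libraries a group limited the rest. With the sex pattern as a covariate, members called in CD97_KO against WT, the wider list there and all genes there numbered 0, 1 and 222 in place of 2, 12 and 1027, and Xdh was -0.89. In G13_KO against CD97_KO it left 0 members called and Xdh at 1.18. In libraries of female pattern the 3 counts in CD97_KO were 0, 0 and 233 (Xdh -1.10), those of the wider list and all genes in G13_KO against WT 0 and 255 of 17 and 1322 (Xdh -0.16), and those of members and all genes between the knockouts 0 and 24 of 1 and 6 (Xdh 0.93). Male-pattern libraries gave 6 and 611 in G13_KO against WT. The female-pattern fits hold 1 WT, 1 G13_KO and 3 CD97_KO libraries, so that only CD97_KO supplies the spread and the lone libraries are assumed to vary like it, and their counts of calls test no replicated difference for G13_KO against WT. The male-pattern fits hold 2 libraries a group.

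The replicate block in the 2 groups gave 1 member in CD97_KO, 2 in G13_KO against WT and 2 between the knockouts, with 73 genes in all there, and the block over all 9 libraries gave 2 members and 14 genes between the knockouts. Besides the values in the report, the block changed no call of a named gene in G13_KO against WT. Members called in G13_KO against WT also numbered 2 with no filter, DESeq2, the sex covariate or the macrophage covariate. Between the knockouts they numbered 2 with no filter, DESeq2 or only the 2 groups fitted, where all genes numbered 11, 55 and 53, and 14 with the macrophage covariate. That covariate gave 642 genes in CD97_KO, and fitting only the 2 groups gave 11 of the wider list in G13_KO. The cause of these changes was not tested.

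Leaving out 1 library gave 1 to 2 members, 3 to 20 of the wider list and 364 to 1271 genes in CD97_KO, 1 to 2, 4 to 19 and 693 to 1459 in G13_KO, and 0 to 2, 0 and 4 to 25 between the knockouts. Xdh ran from -1.05 to -0.82, 0.17 to 0.41 and 1.11 to 1.33.

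Some differences that were not called changed sign. In CD97_KO against WT, Gclm was 0.0177 with library totals and 0.0837 with the sex covariate, and -0.20 to 0.13 with 1 library left out, where Gclc ran from -0.0199 to 0.21. There Nfe2l2 was 0.00196 with library totals and 0.0318 with the sex covariate (-0.21 to 0.14 with 1 library left out). Keap1 was -0.00339 and -0.00396 with the replicate block over 9 libraries and in the 2 groups and -0.0235 with the macrophage covariate (-0.0643 to 0.13). Bach1 was 0.0179 with library totals, 0.0358 with the macrophage covariate and 0.13 in female-pattern libraries (-0.15 to 0.0582), and Ada was -0.0133 in the last.

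In G13_KO against WT, female-pattern libraries gave -0.88 for Gclm and 0.45 for Cd97, and 0.31 for Osgin1, which had been called lower. Male-pattern libraries gave -0.0776 for Bach1. With 1 library left out Gclm ran from -0.0936 to 0.31, Cd97 from -0.31 to 0.0398, Nfe2l2 from -0.0111 to 0.35 and Bach1 from -0.00295 to 0.29. Between the knockouts, Gclm was -0.0214 with the sex covariate and -0.59 in female-pattern libraries (-0.0622 to 0.34 with 1 library left out), and Txnrd1 was 0.0267 and 0.0368 (-0.23 to 0.12).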
